A study of Mus musculus with 6 samples.

Results

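The cortical excitatory neuron and layer genes are 41 mouse genes that mark glutamatergic projection neurons of the cerebral cortex. They were taken by symbol from a fixed list, out of 55604 genes in each count table, and split by where textbook anatomy places them: 9 are pan-excitatory or span several layers, 14 belong to upper layers and 18 to deep layers. The list and its classes were chosen with earlier results of these data known. Gene-level read counts covered 6 brain libraries of the mouse strain C57BL/6, of which 3 were from animals that received 4-aminopyridine (4-AP, a blocker of voltage-gated potassium channels that provokes seizures) intraperitoneally and 3 from untreated controls. The sources used here do not give the brain region, the age or sex of the animals, the time from injection to sampling or whether each library came from its own animal, so p-values measure the spread between these samples, which may be technical. In both groups RNase R, an exonuclease that digests linear RNA and spares circles, was applied to the RNA before sequencing, and the counts add up whatever circular and remaining linear RNA fell on a gene's exons.

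Excitatory neurons of the cortex release glutamate, which the transporter encoded by Slc17a7 loads into synaptic vesicles. During development, transcription factors divide these neurons by layer. Upper-layer neurons, marked by Cux1, Cux2 and Rorb, connect mainly within the cortex. Deep-layer neurons, specified by Fezf2, Bcl11b and Tbr1 among others, send axons to thalamus, brainstem and spinal cord. Several of the genes are also used elsewhere in the brain; Bcl11b, for example, is abundant in neurons of the striatum.

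All 41 genes had counts in every library, and 39 carried enough reads for the test; the calcium-signalling modulator gene Pcp4 (3 to 12 counts a library) and the homeobox gene Otx1 (1 to 11 counts) did not. Levels below are CPM, counts over the library size after TMM scaling (trimmed mean of M-values), multiplied by 1e+06. Per kilobase of exon, the control levels ran from 0.337 CPM for Otx1 to 179 for Slc17a7, with Nrgn next at 148, then the POU-domain factor Pou3f3 at 53.8, Tle4 at 30.6 and Rprm at 28.8. Total counts ranged from 1507882 to 2721287 in the 4-AP libraries and from 2355610 to 3409055 in the controls, and 1 read was worth 0.259 to 0.731 CPM.

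The 4-AP libraries were compared with the controls. Of the 9 pan-excitatory genes 3 fell, Slc17a7, Nrgn and Neurod2, to between 0.515 and 0.580 of the control level. Of 14 upper-layer and 16 tested deep-layer genes none passed edgeR's quasi-likelihood test (Benjamini-Hochberg adjusted p under 0.05), and no member of any class was called higher. Over all 11388 genes tested, 0.843% were called, 0.509% lower and 0.334% higher. The median log2 fold change was -0.78 for the pan-excitatory genes, -0.30 for the upper-layer genes and -0.05 for the deep-layer genes, against -0.01 for all genes tested. Single libraries moved the layer medians: without 4-AP replicate 2 they were -0.076 (upper) and -0.093 (deep), in reversed order, and the deep-layer median was -0.23 without 4-AP replicate 1, -0.14 without control replicate 1 and -0.0050 without control replicate 2. The difference between the classes was not tested. In bulk tissue, fewer cells of a type and less RNA per cell cannot be told apart.

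**Figure D1:**
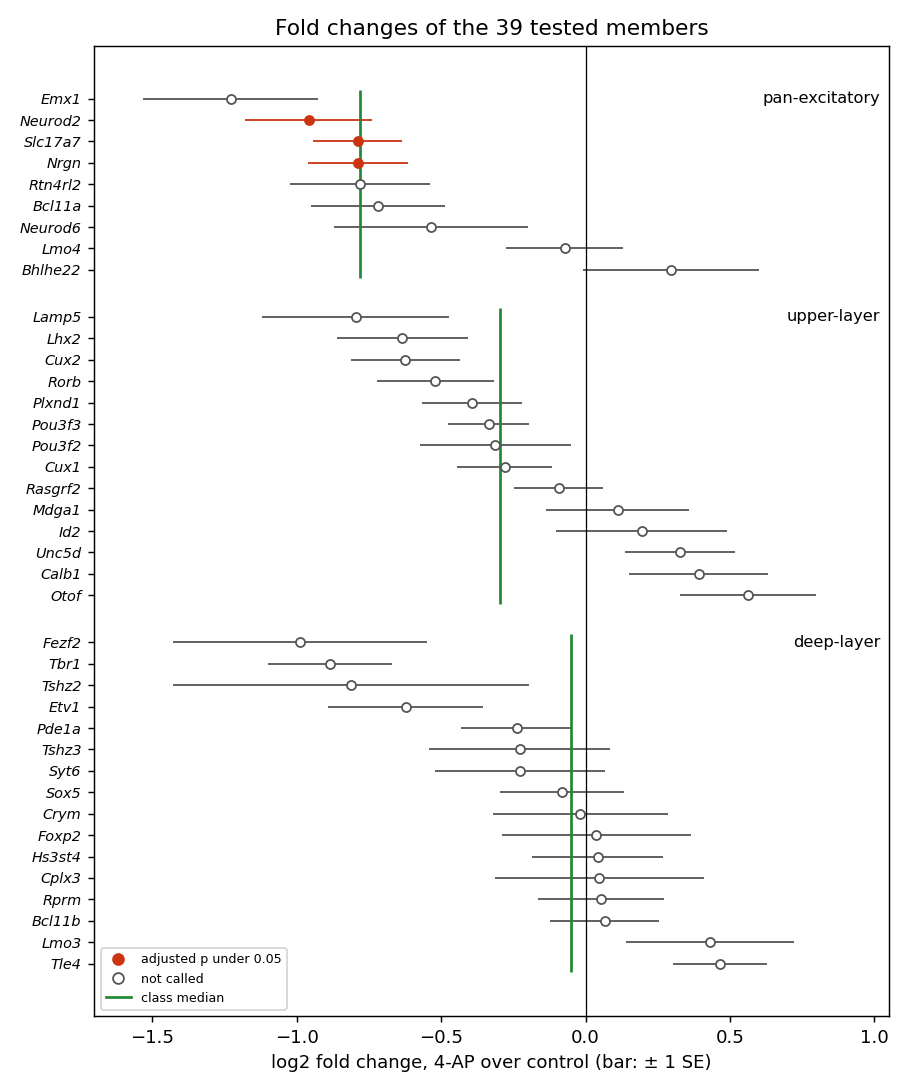
Log2 fold change (4-AP over control, horizontal axis) of the 39 tested genes in 3 classes, with bars of 1 standard error, filled red points for genes called at an adjusted p under 0.05 by edgeR and green lines at the class medians. The 3 called genes are all pan-excitatory, and the medians lie at -0.78, -0.30 and -0.05 from top to bottom.

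The genes whose 3 4-AP libraries all lay below all 3 controls were 6 of 9 pan-excitatory, 6 of 14 upper-layer and 2 of 16 tested deep-layer genes, or 66.7%, 42.9% and 12.5%. Over all genes tested the share was 10.4% (18.8% in either direction), so the deep-layer share was near the background. The reverse, all 4-AP libraries above all controls, held for 1 member, the upper-layer gene Otof, against 8.36% of all genes. At an unadjusted p under 0.05, 6 pan-excitatory, 6 upper-layer and 3 deep-layer genes were lower (background 7.57%), and Otof and the deep-layer gene Tle4 were higher (background 6.29%). limma-voom called the same 3 genes lower. So did DESeq2, which gave an adjusted p to only 15 of the 39 genes, 6 of them upper-layer and 5 deep-layer.

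Slc17a7 had the most reads of all members. This gene, the vesicular glutamate transporter VGLUT1 (chromosome 7, 45163949 to 45176142, mm10, plus strand), stood at 658, 584 and 431 CPM in 4-AP replicates 1, 2 and 3 and at 938, 956 and 998 CPM in control replicates 1, 2 and 3. The controls lay close together, and every 4-AP library was below the lowest of them. On the log2 scale the change was -0.79 (SE 0.15), with an adjusted p from edgeR of 0.0142. Nrgn encodes neurogranin, a postsynaptic protein that holds calmodulin (chromosome 9, 37544492 to 37552904, minus strand). It was at 163, 96.1 and 118 CPM in the 4-AP libraries and at 200.2, 209 and 237 CPM in the controls. The groups again did not overlap (log2 -0.79, SE 0.17; adjusted p = 0.0333). Neurod2, a basic helix-loop-helix transcription factor of maturing excitatory neurons (chromosome 11, 98325415 to 98329648, minus strand), was at 50.9, 31.1 and 26.3 CPM against 74.2, 71.3 and 63.4 CPM. Here 4-AP replicate 1 came nearest to the controls, as it did for Slc17a7 and Nrgn. The log2 fold change was -0.96 (SE 0.22; adjusted p = 0.0379).

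These calls depended on single libraries. With each library dropped in turn, Slc17a7 passed in 3 of 6 fits and lost its call without 4-AP replicate 3 (log2 -0.64, adjusted p = 0.150), control replicate 2 (adjusted p = 0.0532) or control replicate 3 (adjusted p = 0.0843). Nrgn passed in 2, those lacking replicate 1 of either group, and without any of the other 4 libraries its adjusted p lay between 0.0936 and 0.187. Neurod2 passed in 1, without 4-AP replicate 1 (log2 -1.27, adjusted p = 0.0129), and lost its call without any of the other 5 libraries, from adjusted p = 0.0731 without control replicate 1 to 0.206 without 4-AP replicate 3. The lowest and highest log2 fold changes over these fits were -0.93 and -0.64 for Slc17a7, -1.02 and -0.59 for Nrgn, and -1.27 and -0.80 for Neurod2, so the direction was the same in all 6.

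**Figure D2:**
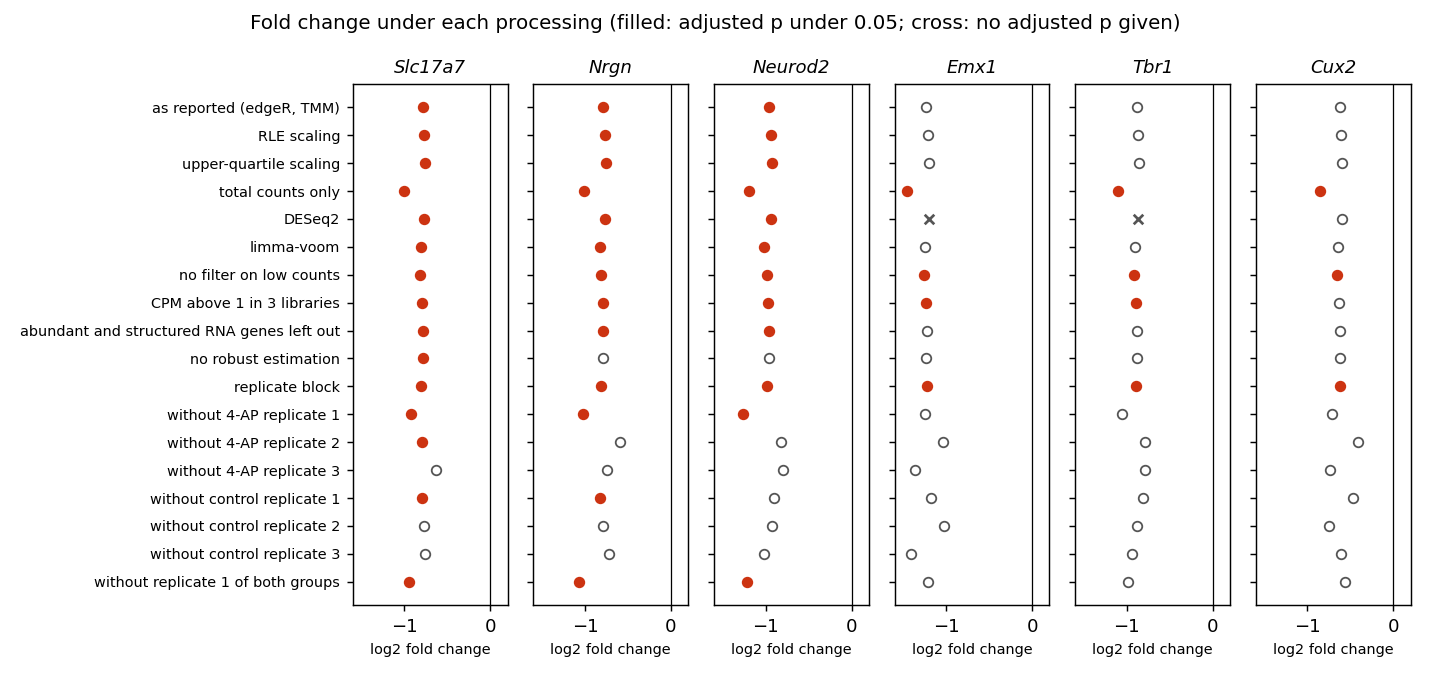
Log2 fold change (horizontal axis) of 6 genes under each way of processing the counts (rows), filled where edgeR, DESeq2 or limma-voom gave an adjusted p under 0.05 and crossed where DESeq2 gave none. Every value is below 0; Slc17a7 is filled in all rows except those without 4-AP replicate 3, control replicate 2 or control replicate 3.

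The stretches just before the RefSeq start sites of Slc17a7 and Neurod2 are shown because these genes fell together and because factors of the Neurod2 family bind E-boxes, the motif CANNTG. Bases run 5′ to 3′ on the gene's strand, from RefSeq on GRCm38.p6 (the mm10 assembly), with E-boxes in capitals.
Slc17a7, chr7:45163721-45163920, plus strand: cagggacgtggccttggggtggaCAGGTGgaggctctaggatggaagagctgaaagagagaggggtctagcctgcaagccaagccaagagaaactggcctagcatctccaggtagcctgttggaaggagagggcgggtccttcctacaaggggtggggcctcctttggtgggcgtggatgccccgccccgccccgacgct
Neurod2, chr11:98329649-98329845, minus strand: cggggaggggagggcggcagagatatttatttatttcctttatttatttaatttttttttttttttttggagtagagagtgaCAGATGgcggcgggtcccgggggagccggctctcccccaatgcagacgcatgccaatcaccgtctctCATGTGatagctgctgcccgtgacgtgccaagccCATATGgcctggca
In the 200 bases before the start, Slc17a7 had 1 E-box, Neurod2 had 3, of which 1 was CAGATG, and Nrgn had 0; that stretch of Nrgn lies mostly in an exon of the GENCODE annotation and is not printed. CANNTG reads the same on both strands and was found in 58.2% of 32851 promoters of the same length and in 25 of 47 promoters of the 34 member genes in the RefSeq table. The forms CAGATG or CATCTG (1 motif on its 2 strands) were in 11.6% of all promoters and 4 of the 47, and CAGCTG in 10.9% and 6. A match describes these letters only.

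Of the other 6 pan-excitatory genes, Emx1, Rtn4rl2 and Bcl11a had 4-AP libraries wholly below the controls without passing the test. Emx1, a homeobox factor of the dorsal forebrain, was at 9.78, 7.86 and 11.7 CPM in 4-AP and at 23.6, 27.0 and 15.6 CPM in control brain. Its change of -1.23 on the log2 scale (SE 0.30; adjusted p = 0.0559) was the lowest of all members, from 15 to 104 reads a library. It passed under 4 other settings: total counts only (adjusted p = 0.0123), no filter on low counts (0.00995), a filter of CPM above 1 in 3 libraries (0.0463) and a replicate block (0.0429). Rtn4rl2, a Nogo receptor family gene, was at 26.1, 17.9 and 16.8 CPM against 33.9, 29.3 and 41.1 CPM (log2 -0.78, SE 0.24; adjusted p = 0.123). The zinc-finger factor gene Bcl11a was at 24.8, 22.2 and 16.8 CPM against 41.8, 30.9 and 33.0 CPM (log2 -0.72, SE 0.23; adjusted p = 0.142).

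In the remaining pan-excitatory genes the groups overlapped. Neurod6, a relative of Neurod2, was at 9.78, 9.29 and 9.503 CPM against 16.3, 15.8 and 8.48 CPM, with control replicate 3 below all 4-AP libraries (log2 -0.54, SE 0.34). The LIM-only factor gene Lmo4 had a log2 fold change of -0.07 (SE 0.20). Bhlhe22, a helix-loop-helix repressor, was the 1 member of the class with a positive value, 0.30 (SE 0.31), at 46.9, 48.2 and 31.4 CPM against 51.5, 33.5 and 17.9 CPM. Its controls spread from 17.9 to 51.5 CPM, wider than its 4-AP libraries.

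**Figure D3:**
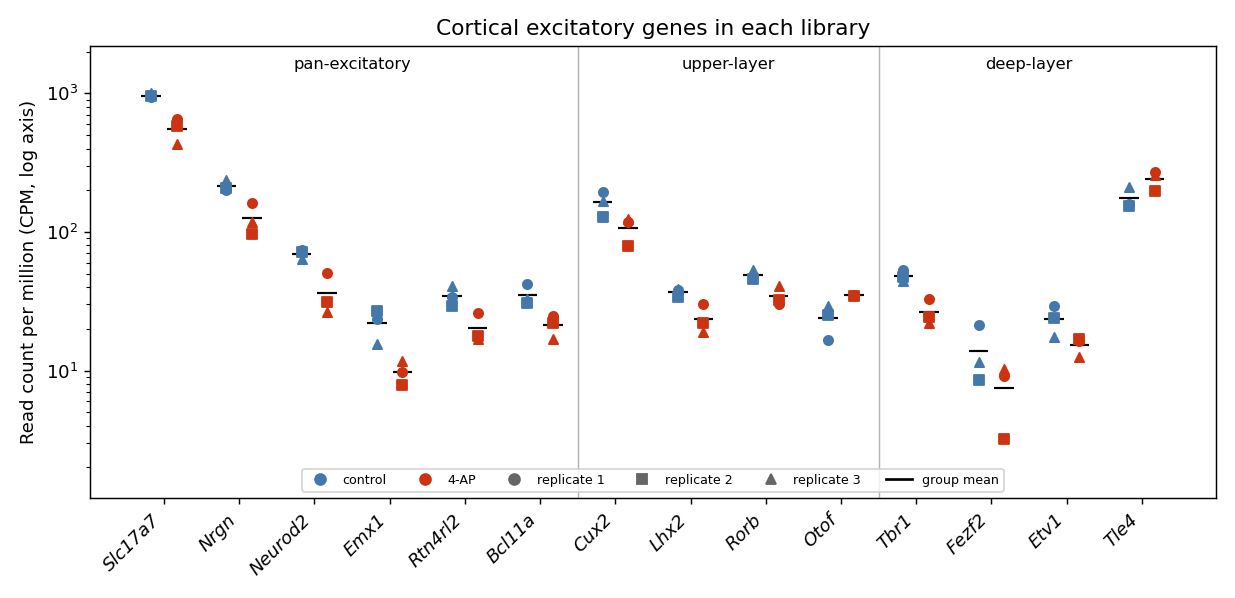
CPM on a log axis of 14 genes in each control (blue) and 4-AP (red) library, with replicates 1 to 3 as circles, squares and triangles and black bars at group means. The 4-AP libraries of Slc17a7 (431 to 658 CPM) lie below its controls (938 to 998 CPM), whereas those of Tle4 (198 to 271 CPM) overlap with them (155 to 212 CPM).

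Over all genes tested 51% had a log2 fold change below 0, against 26 of the 39 members and 8 of the 9 pan-excitatory genes. In the upper-layer class 9 of 14 were below 0, from -0.80 for Lamp5 to -0.09 for Rasgrf2, and 5 lay above 0. Cux2, a cut-like homeobox factor of layers II to IV, had the smallest p: 118, 79.3 and 124 CPM in 4-AP and 195, 128 and 166 CPM in control brain (log2 -0.62, SE 0.19; adjusted p = 0.113). It passed with total counts only (adjusted p = 0.0179), with no filter (0.0178) and with the replicate block (0.0265). The groups were separated narrowly, since 4-AP replicate 3 lay just under control replicate 2. Its paralogue Cux1 overlapped between groups, at 116, 91.1 and 110 CPM against 124, 113 and 147 CPM (log2 -0.28, SE 0.17). Lhx2, a LIM-homeobox factor, was at 29.99, 22.2 and 19.0 CPM against 38.0, 33.7 and 38.8 CPM (log2 -0.63, SE 0.23; adjusted p = 0.182). Rorb, the nuclear receptor that marks layer IV, was at 29.99, 32.2 and 40.9 CPM against 48.4, 45.6 and 53.1 CPM (log2 -0.52, SE 0.20; adjusted p = 0.233). In both genes every 4-AP library was below every control.

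Among the other upper-layer genes, the POU factor gene Pou3f3 stood at 331, 308 and 310 CPM in 4-AP and 455, 361 and 380.2 CPM in control brain (log2 -0.34, SE 0.14; adjusted p = 0.271). The groups did not overlap, but the difference was small. Lamp5, a membrane protein gene that also marks a class of cortical interneurons, had its low value in 1 library: 34.6, 10.01 and 27.8 CPM against 38.3, 39.7 and 41.1 CPM (log2 -0.80, SE 0.32; adjusted p = 0.275). The semaphorin receptor gene Plxnd1 was at -0.39 (SE 0.17), also with separate groups, and Pou3f2, Rasgrf2, Mdga1 and Id2 lay between -0.31 and 0.19 with overlapping groups.

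Otof, which encodes the vesicle calcium sensor otoferlin and marks layer II/III neurons, went the other way, at 35.2, 34.3 and 35.1 CPM in 4-AP and 16.7, 25.2 and 29.5 CPM in control brain. All 4-AP libraries were above all controls (log2 0.56, SE 0.24), but the gene did not pass (adjusted p = 0.274). The calcium-buffer gene Calb1, at 30.6, 37.9 and 24.9 CPM against 18.9, 29.6 and 23.7 CPM (log2 0.39, SE 0.24; adjusted p = 0.514), overlapped between groups. So did the netrin receptor family gene Unc5d, at 71.7, 78.6 and 68.0 CPM against 57.2, 46.9 and 71.9 CPM (log2 0.33, SE 0.19; adjusted p = 0.489). Calb1 is also abundant in other neurons of striatum, hippocampus and cerebellum.

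The deep-layer class was spread around 0, with 9 of 16 tested genes below it and 7 above. Tbr1, the T-box factor of layer VI neurons, was lowest in p: 32.6, 24.3 and 21.9 CPM in 4-AP against 52.8, 47.5 and 44.6 CPM in control brain (log2 -0.88, SE 0.21; adjusted p = 0.0540). Its groups were clearly apart, yet it missed the threshold, as it did in each of the 6 fits with a library dropped (lowest adjusted p = 0.0580, highest 0.218). It passed under 4 of 11 other settings: total counts only (0.0120), no filter (0.0113), the CPM filter (0.0439) and the replicate block (0.0264). Etv1, an ETS-domain factor of layer V, was at 16.3, 16.8 and 12.4 CPM against 29.2, 23.9 and 17.4 CPM (log2 -0.62, SE 0.27; adjusted p = 0.289). The groups met closely, 16.8 against 17.4 CPM. Fezf2, which specifies subcerebral projection neurons, was at 9.13, 3.22 and 10.2 CPM against 21.4, 8.56 and 11.6 CPM, with 9 to 68 reads a library (log2 -0.99, SE 0.44; adjusted p = 0.318), and its groups overlapped. Its value was -0.49 without 4-AP replicate 2 and also without control replicate 1.

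Tle4 and Lmo3 had the highest values of the deep-layer class. Tle4, a Groucho-type corepressor of layer VI neurons, was at 271, 198 and 257 CPM in 4-AP against 158, 155 and 212 CPM in control brain (log2 0.47, SE 0.16; adjusted p = 0.171), with control replicate 3 above 4-AP replicate 2. The LIM-only gene Lmo3 was at 46.9, 55.7 and 25.6 CPM against 20.4, 43.3 and 33.0 CPM (log2 0.43, SE 0.29, adjusted p = 0.567). Its log2 value was 0.19 without control replicate 1 and 0.20 without 4-AP replicate 2. Of the others, Bcl11b, Rprm, Cplx3, Hs3st4, Foxp2, Crym and Sox5 lay between -0.08 and 0.07, and Syt6, Tshz3 and Pde1a between -0.24 and -0.23. Tshz2, at -0.81 (SE 0.62), had 7 to 57 reads a library and shares 67.5% of its exonic bases with other annotated genes, so its value is uncertain; Pcp4 shares 23.7%, and the other 39 genes share at most 9.25%.

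**Figure D4:**
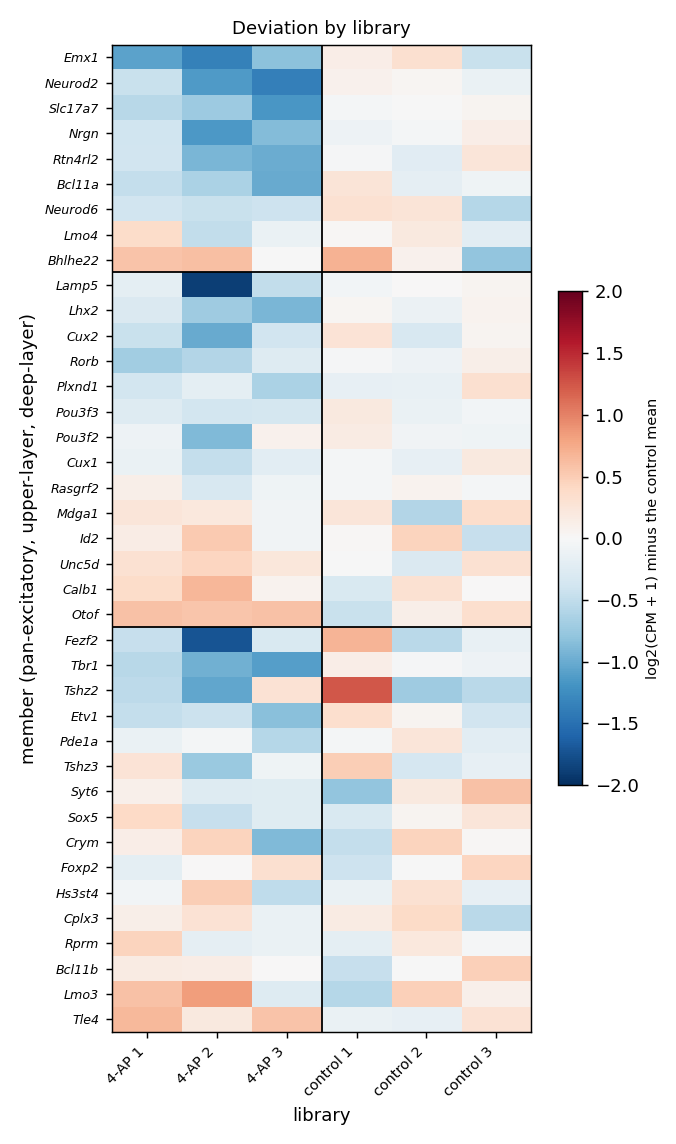
Each cell is a gene's log2(CPM + 1) in 1 library minus its mean over the 3 controls, for the 39 tested genes (rows, by class and then by fold change) and 6 libraries (columns), from blue (lower) to red (higher). Blue is densest in the pan-excitatory block of the 4-AP columns, where the median deviations are -0.40, -0.72 and -0.86, and the deep-layer block is mixed.

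Read by library, the summed level of the 9 pan-excitatory genes was nearly constant in the controls, at 1466, 1471 and 1488 CPM, and lower and more spread in 4-AP brain, at 1100.5, 877 and 739 CPM. Slc17a7 made up most of it. The upper-layer sum was 1161, 1019 and 1077 CPM against 1360, 1188 and 1362 CPM, also without overlap. Pou3f3 had the largest part in it, on average 316 of 1085.5 CPM in 4-AP and 399 of 1303 CPM in control brain. The separation of the upper-layer sums depended in part on this gene. The deep-layer sum overlapped between groups, at 949, 829 and 770 CPM in 4-AP and 724, 847 and 905 CPM in control brain.

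A second list of 33 other genes of cortical excitatory neurons, 29 of them tested, was read in the same fit. It had 2 genes called lower (6.9%, against 0.509% of all genes tested) and 0 called higher. Below 0 were 25 of 29 (86.2%, against 51%), and the median was -0.38. Like the members, this list was chosen with earlier results of these data known. Nptx1, a secreted pentraxin that clusters AMPA receptors, was at 158, 167 and 114 CPM in 4-AP and 265, 251 and 265 CPM in control brain (log2 -0.82, SE 0.16; adjusted p = 0.0136). Mef2c, an activity-regulated transcription factor, was at 175, 134 and 127 CPM against 217, 272 and 230 CPM (log2 -0.72, SE 0.16; adjusted p = 0.0327). In both, the groups were fully apart. Nptx1 lost its call without 4-AP replicate 3 (adjusted p = 0.113) or control replicate 3 (0.0672), and Mef2c in 4 of the 6 such fits (highest adjusted p = 0.198, without 4-AP replicate 3; 0.0751 without 4-AP replicate 2, 0.142 without control replicate 2 and 0.105 without control replicate 3).

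Among the genes of that list that did not pass was Camk2a, the synaptic kinase gene of excitatory neurons, at 856, 484 and 628 CPM in 4-AP and 1003, 961 and 987 CPM in control brain (log2 -0.59, SE 0.17; adjusted p = 0.0937). The groups did not overlap, and the 4-AP libraries were spread much more than the controls. The tyrosine kinase gene Ptk2b was at -0.47 (SE 0.15; adjusted p = 0.144). Camk2a passed under some other settings, namely without 4-AP replicate 1 (-0.83, adjusted p = 0.0356), with DESeq2 (0.0491), total counts only (0.00760), no filter (0.00490) and the replicate block (0.0264), whereas without 4-AP replicate 2 it was at -0.38 (adjusted p = 0.248). Ptk2b passed with total counts only (adjusted p = 0.0334) and was at -0.30 without control replicate 3. The positive members with the smallest p were Crim1, a layer V gene, at 0.40 (SE 0.14; adjusted p = 0.182), Wfs1, a gene of the endoplasmic reticulum that is also on the hippocampal list, at 0.46 (SE 0.18; adjusted p = 0.246), and the mTOR-binding gene Deptor at 0.20 (SE 0.23; adjusted p = 0.780).

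Markers of other cells and regions moved with the groups in part. The 20 markers of subcortical excitatory and diencephalic neurons summed to 196, 284 and 377 CPM in 4-AP brain and to 248.6, 62.0 and 63.8 CPM in control brain. Of the 10 that could be tested 3 were called higher (0.334% of all genes tested), the hormone genes Oxt, Avp and Trh, and 0 lower (0.509%). The median log2 fold change was 1.08, against -0.01 for all genes tested. Oxt, Avp and Trh had at most 10 counts in any control and passed the filter on low counts only through their 4-AP libraries. Tcf7l2 was not tested, with 39, 1 and 0 counts in the controls and 3, 9 and 10 in 4-AP. Nor was Pmch, with 1, 0 and 0 against 6, 14 and 8. The calls and the median thus depend in part on the filter. Control replicate 1 was near the 4-AP libraries in Slc17a6, the glutamate transporter of subcortical neurons (38.0 CPM, against 5.19 and 10.7 CPM in the other controls and 29.3 to 54.1 CPM in 4-AP). In the same library Slc17a7 was at 938 CPM and the pan-excitatory sum at 1466 CPM, beside 956 and 998 CPM and 1471 and 1488 CPM in the other controls. Control replicate 1 was also highest in the 11 hippocampal markers, at 481 CPM. The other controls were at 261 and 279 CPM and the 4-AP libraries at 308 to 351 CPM. Control replicate 1 was lowest in the 12 striatal markers (484 CPM, against 1577 and 2653 CPM in the other controls and 1627 to 2259 CPM in 4-AP). How these regional differences bear on the Slc17a7 level was not tested. Each striatal marker had a fitted log2 value above 0 (median 0.35), and edgeR called 0 of them, with 0 at an unadjusted p under 0.05. In Bcl11b control replicate 1 was at 108 CPM, against 149 and 209 CPM in the other controls and 151 to 168 CPM in 4-AP. Of the layer genes with a log2 value of at least 0.3, Otof, Calb1 and Lmo3 also had their lowest level in this library. Unc5d and Tle4 did not. Without control replicate 1, Slc17a7 and Nrgn were still called and Neurod2 was not (log2 -0.90, adjusted p = 0.0731).

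Neuronal and glial markers gave a mixed picture beside the excitatory genes. The 15 pan-neuronal markers had sums without overlap, between 3546 and 3966 CPM in 4-AP and between 4081 and 4493 CPM in control brain. Their median log2 fold change was -0.23, and edgeR called 0. Below 0 were 12 of the 15 (51% of all genes), and in 5 every 4-AP library lay below every control (10.4% of all genes). At an unadjusted p under 0.05 by edgeR, 3 were lower (7.57% of all genes) and 1 higher (6.29%). Rbfox3 and Syn1 were lowest, both at -0.65 (edgeR adjusted p = 0.0604 and 0.0707). Gap43 was highest, at 0.50 (SE 0.19, edgeR adjusted p = 0.209), with every 4-AP library above every control. The 15 GABAergic markers overlapped between groups (669 to 837 CPM against 636 to 760 CPM, median -0.02 over the 13 tested). At an unadjusted p under 0.05 by edgeR, 0 of these were lower and 1 was higher. That was Adarb2, at 0.70 (SE 0.17, edgeR adjusted p = 0.0577), with every 4-AP library above every control. The 12 astrocyte markers were lower in sum (2489 to 2821 CPM against 3082 to 3252 CPM) with a median of 0.11, so sum and median differed in sign. Of these, edgeR called 1, the glutamate transporter Slc1a2 (lower). The 10 microglia markers were higher in sum (471 to 579 CPM against 395 to 463 CPM), with a median of 0.04. Cx3cr1 made up most of that sum, on average 374 of 539 CPM in 4-AP and 252 of 420 CPM in control brain. Its log2 fold change was 0.57 (SE 0.14, edgeR adjusted p = 0.0593). The sums of hippocampal, oligodendrocyte and vascular markers overlapped, with medians of -0.11, 0.17 and -0.05. None of these lists had a marker at 0 in every library. The share of counts from mitochondrial genes was 1.23% to 2.35% in the 4-AP libraries and 0.564% to 1.17% in the controls, also without overlap; that of ribosomal RNA loci was 6.61% to 14.3% and 3.28% to 8.26%, with overlap. The part of these cell markers and of RNA composition in the excitatory gene differences was not tested.

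**Figure D5:**
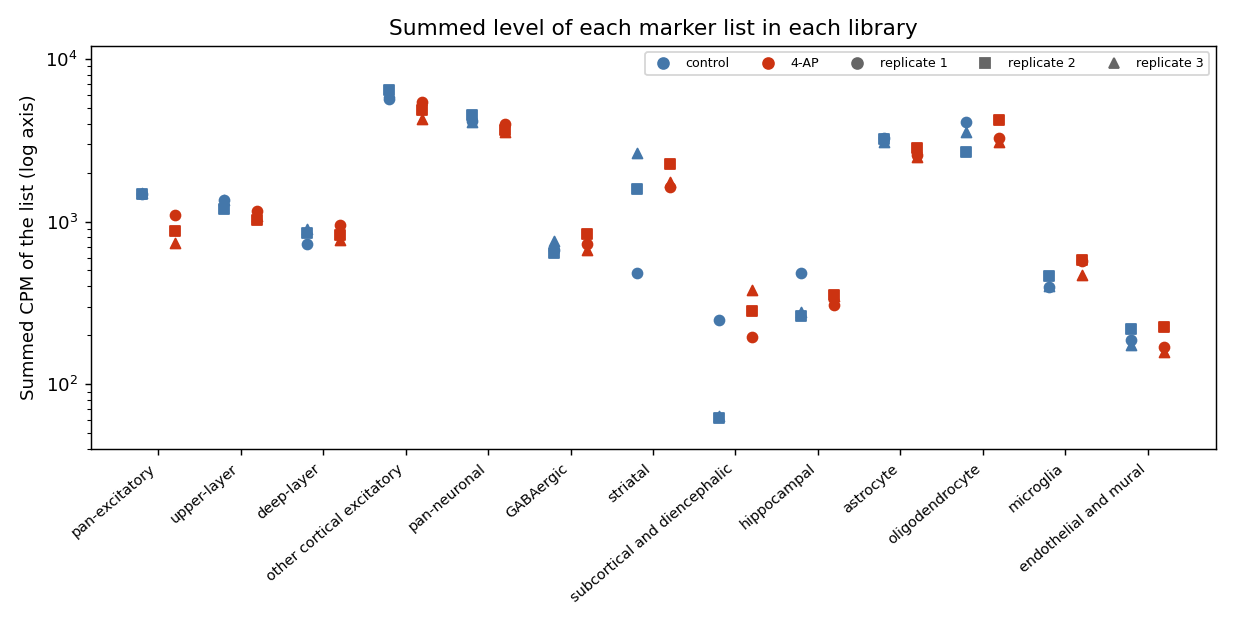
Summed CPM (log axis) of each marker list in each control (blue) and 4-AP (red) library, with replicates 1 to 3 as circles, squares and triangles. The pan-excitatory sums do not overlap between groups (739 to 1100.5 against 1466 to 1488 CPM). Control replicate 1 lies apart from the other controls in striatal (484 CPM), hippocampal (481 CPM) and subcortical and diencephalic markers (248.6 CPM).

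The genes also differ in exon structure. Bhlhe22, Pou3f2, Pou3f3 and Rprm have a single exon in GENCODE M21 and Neurod2 and Neurod6 have at most 2, whereas Otof has up to 47 and Plxnd1 up to 36. The single-exon genes had reads in every library, with control levels per kilobase of exon of 53.8 CPM for Pou3f3, 28.8 for Rprm, 10.3 for Bhlhe22 and 4.79 for Pou3f2. The multi-exon genes Slc17a7 and Nrgn lay above all 4, and Cux1 (6.40) and Otof (3.01) lay below Bhlhe22. Their log2 fold changes ran from -0.34 for Pou3f3 through -0.31 for Pou3f2 and 0.05 for Rprm to 0.30 for Bhlhe22, and none was called.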

How the data were processed

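Per the submitters' processing notes, alignment to mm10 used STAR 2.5.3a, with featureCounts for the counting; the sources used here do not give the annotation release, the strand setting or how multi-mapping reads were treated. The authors deposited whole-number read counts per gene, 1 table for each of 6 libraries. Of 55604 Ensembl identifiers, 54809 matched GENCODE M21 (same assembly), and those unmatched held 0.00715% of counts. filterByExpr removed low genes (minimum count 10, minimum total 15), and the rest were tested with edgeR 4.0.16 in R 4.3.3 (trimmed mean of M-values, robust quasi-likelihood fit, group as the only term), with Benjamini-Hochberg adjustment over all genes and a threshold of 0.05; standard errors come from the fold change and F. Alternatives used DESeq2 1.42.0, limma-voom (limma 3.58.1), other scalings and filters, a replicate block and each library left out. No library pair matched within sampling noise (lowest chi-square per degree of freedom 8.52). The procedure was run on simulated counts drawn from the model that edgeR fits. Apart from genes changed on purpose, all simulated libraries had the same composition. That run checks the code and cannot bear on the calls reported here. The rule for named genes took called members, the 4 smallest p per class besides these, and members with log2 of at least 0.3; other members named here were chosen after their values were seen. The members, classes and lists were chosen with earlier results of these data known. A gene that the rule takes from the second list is not reported here.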

Additional observations from a re-analysis of the deposited data

How the results depend on the processing

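Each of the 3 called members kept a negative log2 fold change in all 17 alternatives, and 0 members were called higher in any. The number of members called lower, 3 as reported, was 8 with total counts only, which moved the median of all genes to -0.22, 6 with no filter on low counts, 5 with a CPM above 1 in 3 libraries and 1 with no robust estimation. By class, total counts only called 5 pan-excitatory, 2 upper-layer and 1 deep-layer genes, no filter called 1 upper-layer and 1 deep-layer gene, the CPM filter called 1 deep-layer gene, and no robust estimation left 1 pan-excitatory gene. The class medians with total counts only were -0.99, -0.51 and -0.26, and -0.46 over all members. Over all genes, 58 lower and 38 higher became 293 lower with total counts only, 111 and 82 with DESeq2, 197 and 131 with no filter, and 30 and 25 with no robust estimation.

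With 1 library left out, 0 to 3 members were called lower, 0 to 3 of them pan-excitatory, with 10 to 54 lower and 16 to 105 higher over all genes. The medians ran from -0.37 to -0.22 over all members, from -0.93 to -0.64 in the pan-excitatory, from -0.36 to -0.076 in the upper-layer and from -0.23 to -0.0050 in the deep-layer class. The upper-layer median was -0.076 without 4-AP replicate 2. Without replicate 1 of both groups, chosen after seeing the data, the same 3 members were called, the deep-layer median was -0.23 and 28 genes were lower, and Nptx1 lost its call (adjusted p = 0.0558); Mef2c lost its call with no robust estimation (0.0568). Deptor was at -0.013 with total counts only.

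With the replicate number as a block, 6 members were called lower (the 3 and Emx1, Cux2 and Tbr1; 1 upper-layer, 1 deep-layer), and 153 lower and 112 higher genes overall. The design text calls the tissue paired, but no label says what samples of one number share, and same-numbered deviations correlated at -0.0022, 0.12 and 0.025, with 4-AP replicates 1 and 3 correlating best with another number, so the reported counts come from the fit without the block; whether the samples are pairs is not settled by these sources. The cause of these changes was not tested. Standard errors reached 0.44 for Fezf2 (9 to 68 reads a library) and 0.62 for Tshz2 (7 to 57 reads). Differences larger than these could also go undetected, since Fezf2 at -0.99 and Tshz2 at -0.81 were not called.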
